A study of Mus musculus with 8 samples.

Results

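The genes described here are 8 genes of tissue macrophages (*Csf1r*, *Adgre1*, *C1qa*, *C1qb*, *C1qc*, *Cd68*, *Mrc1* and *Cd163*) and *Retnla*, which macrophages and fat cells can both express. They were found by gene symbol and Entrez identifier, and all 9 are present among the 27179 genes counted. The macrophage genes were picked as known markers, whereas *Retnla* was picked because its level rose in cKO uteri, so its difference between genotypes is given below as a description without a test. RNA-seq libraries came from whole uteri at postnatal day 10 (PD10), 4 of control and 4 of cKO mice, a time when uterine glands begin to form. Control mice had the genotype Ezh2 f/f, in which *Ezh2*, the gene of the main histone H3K27 methyltransferase, carries loxP sites but is not cut. The cKO mice had the genotype Ezh2 f/f; Acre, with the same floxed allele and in addition Cre recombinase driven by *Amhr2*, which is active in cells derived from the Müllerian duct mesenchyme and not in the uterine epithelium. Mice of both genotypes were on a mixed C57BL/6/129SvEv background. The libraries hold RNA from all cells of the uterus, so that fewer macrophages and less RNA per macrophage cannot be told apart.

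Macrophages of the uterus live in the stroma and the muscle layers, where they clear dying cells and debris. They depend on CSF1R, a receptor tyrosine kinase that binds the growth factors CSF1 and IL34, which are made by neighbouring cells. Macrophages are also the chief source of C1q, the recognition protein of the classical complement pathway. When they receive IL4 or IL13 through the transcription factor STAT6, mouse macrophages raise *Mrc1*, *Retnla* and *Chil3*, a state known as alternative activation. *Retnla* encodes RELMα, a small secreted protein of the resistin family, and it is also known from white fat.

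The promoter sequences of 4 genes are shown because they belong to gene clusters whose members can be compared: *Retnla*, the member picked for its change, beside its tandem neighbour *Retnlg*, and *C1qb* beside *C1qc*, which encode subunits of the same protein. Each is the stretch of 250 bases before a start site in the RefSeq table of GRCm38.p6. For *C1qc* this window begins at 136892915, inside the gene as given below, which extends to 136892936. Capitals mark matches on either strand to the letters of STAT6 sites (TTC and GAA with 4 bases between them), C/EBP sites (TTGCNNAA), the TATA box (TATAAA) and the core of PU.1 sites (GAGGAA).
Retnla chr16:48842359-48842608(+): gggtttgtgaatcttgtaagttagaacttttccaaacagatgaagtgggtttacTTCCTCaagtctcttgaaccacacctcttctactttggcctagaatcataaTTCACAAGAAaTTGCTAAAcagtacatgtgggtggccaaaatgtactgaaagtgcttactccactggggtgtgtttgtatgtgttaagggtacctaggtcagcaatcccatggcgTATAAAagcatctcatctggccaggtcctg
Retnlg chr16:48872358-48872607(+): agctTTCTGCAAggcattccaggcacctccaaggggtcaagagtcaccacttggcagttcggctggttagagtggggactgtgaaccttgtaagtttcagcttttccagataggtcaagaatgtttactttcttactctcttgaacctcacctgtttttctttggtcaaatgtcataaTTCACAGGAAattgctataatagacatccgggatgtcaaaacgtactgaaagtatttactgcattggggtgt
C1qb chr4:136886201-136886450(-): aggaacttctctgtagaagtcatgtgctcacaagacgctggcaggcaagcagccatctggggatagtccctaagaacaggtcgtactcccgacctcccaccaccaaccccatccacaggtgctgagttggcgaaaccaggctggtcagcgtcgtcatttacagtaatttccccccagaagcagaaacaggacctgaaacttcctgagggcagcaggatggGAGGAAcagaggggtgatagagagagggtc
C1qc chr4:136892915-136893164(-): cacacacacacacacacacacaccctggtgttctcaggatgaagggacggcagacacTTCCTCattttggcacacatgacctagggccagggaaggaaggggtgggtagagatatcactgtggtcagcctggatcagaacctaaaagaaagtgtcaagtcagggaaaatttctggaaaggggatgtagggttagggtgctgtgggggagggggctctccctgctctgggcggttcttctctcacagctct
The *Retnla* promoter holds each of these motifs once, with the STAT6 letters starting 145 bases and the TATA box 30 bases before the start site. The C/EBP match starts 134 bases before it, and no match overlaps another. In the *Retnlg* window the STAT6 letters also occur, 72 bases before its start site, and the PU.1 letters do not. Its C/EBP match starts 246 bases before the start site, upstream of the STAT6 letters, whereas that of *Retnla* lies downstream of them. As the STAT6 letters lie nearer to the start site in *Retnlg*, the counterpart of the *Retnla* TATA box falls outside this window. The lack of a TATA match there therefore shows no difference from *Retnla*. The windows of *Retnla* and *Retnlg* can be aligned over 177 columns, of which 76.3% are identical. *C1qb* and *C1qc* each hold 1 PU.1 match and none of the other motifs. Among 27025 promoters of the same length, 5.86% hold the STAT6 letters, 9.55% the C/EBP letters and 23.1% the PU.1 letters, while 3504 of them hold the TATA box, so that a match alone is not rare. The table has promoters for 6 of the 9 genes, and those of *Cd68*, *Mrc1* and *Cd163* hold 1, 3 and 0 matches to the PU.1 letters.

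Between 25287141 and 36685807 reads per library were counted on genes, and levels are given as CPM, the read count scaled to the size of the library. A gene with 0 reads may have had up to 3, which corresponds to 0.0824 to 0.117 CPM. Of 16658 genes tested with edgeR's quasi-likelihood test, 5.34% passed the threshold of 0.05 on the adjusted p-value, with 2.62% higher and 2.71% lower in cKO uteri and 1.3% also changed over 2-fold. The libraries of the genotypes did not overlap for 12.3% of genes, 5.9% with higher and 6.43% with lower levels in cKO uteri. *Ezh2* itself averaged 45.0 ± 8.71 CPM in the control group and 36.8 ± 4.41 CPM in the cKO group (SD, n = 4 each), and the libraries overlapped. Cre removes only part of the gene and spares the epithelium, while these counts cover the whole gene and all cells. The paper reports less *Ezh2* mRNA in cKO uteri and weaker EZH2 staining of their stromal cells. The uterine genes *Hoxa10*, *Hoxa11*, *Esr1*, *Pgr*, *Krt8*, *Acta2*, *Vim* and *Amhr2* were all detected, and the lowest value was 3.15 CPM, of *Amhr2* in cKO replicate 4. *Hoxa10*, *Hoxa11* and *Amhr2* passed the test with lower levels in cKO uteri. The libraries of cKO replicates 1 to 3 also carried RNA of fat cells that the other libraries had at low levels only. The mean log2(CPM + 0.1) of 10 adipocyte genes, called the adipocyte score below, was 3.86, 4.64 and 3.90 in these 3 libraries. It was 0.12 in cKO replicate 4 and between -0.15 and 0.51 in the control libraries. Some values are therefore also given for cKO replicate 4 alone against the controls, as log2 fold changes only, since a comparison with 1 cKO library called 35 of 16122 genes.

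None of the 8 macrophage genes differed between genotypes with an adjusted p-value under 0.05 in edgeR, and for each of them the libraries of the genotypes overlapped. None had an unadjusted p-value under 0.05 in edgeR either, and DESeq2 also called none of them. Of all 16658 genes tested, 5.34% were called in edgeR and 21.2% had an unadjusted p-value under 0.05, while DESeq2 called 1506. The log2 fold changes of the 8 genes (cKO over control) lay between -0.29 and 0.39, with a median of -0.10, while the median over all genes tested was 0.00044. The plot of levels by library shows the overlap for these genes and the separation for *Retnla*. All macrophage markers were well above the detection limit, the lowest value being 2.31 CPM of *Cd163* in control replicate 4.

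**Figure D1:**
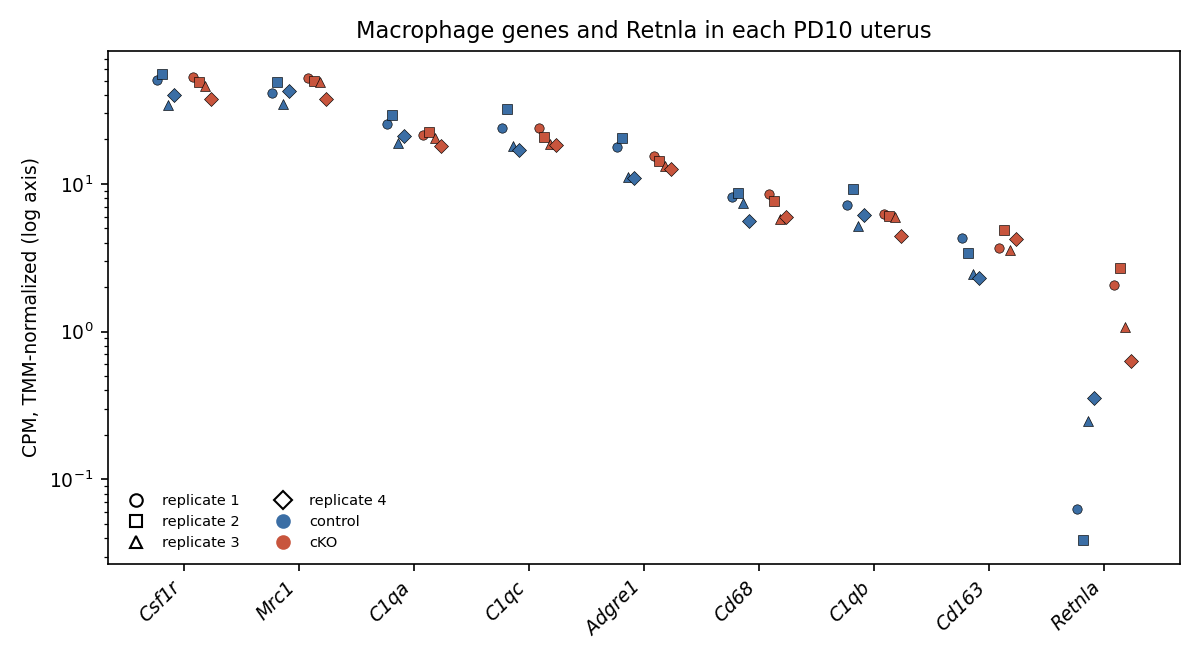
TMM-normalized CPM of the 9 genes (log axis) in each of 4 control (blue) and 4 cKO (red) uteri, with 1 point per library and the symbol giving the replicate number. Control and cKO points overlap for the 8 macrophage genes, while *Retnla* was between 0.0387 and 0.357 CPM in control and between 0.630 and 2.68 CPM in cKO libraries.

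*Csf1r* (Entrez 12978), the receptor on which macrophages depend, was at 50.3, 55.5, 34.2 and 39.9 CPM in control replicates 1 to 4. In cKO replicates 1 to 4 it was at 52.6, 48.7, 46.4 and 37.4 CPM. The cKO values lie within the range of the control values. Its log2 fold change was 0.04 (95% interval -0.29 to 0.38, adjusted p = 0.904 in edgeR, by the quasi-likelihood test with Benjamini-Hochberg adjustment), and the sign turned when control replicate 3 or 4 or cKO replicate 1 was left out. Of its ligands, *Csf1* averaged 25.3 ± 1.68 CPM in the control group and 25.3 ± 3.71 CPM in the cKO group (SD, n = 4 each). *Il34* was between 3.93 and 5.07 CPM in control and between 5.14 and 6.12 CPM in cKO libraries. Every cKO library thus had more *Il34* than every control library, a separation in this direction that 5.9% of all genes tested showed, but its log2 fold change of 0.34 (standard error 0.13) had an adjusted p-value of 0.150 in edgeR. Of 8 genes tested from a list of myeloid growth factors and their receptors, which includes both ligands, none passed the adjusted threshold in edgeR or DESeq2, and 4 had an unadjusted p-value under 0.05 in edgeR, against 21.2% of all genes.

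The 3 chains of C1q are encoded side by side on chromosome 4 of GRCm38, in the order *C1qb* (136880126 to 136886200), *C1qc* (136889801 to 136892936) and *C1qa* (136895916 to 136898844), with 3600 and 2979 bases between them. *C1qa* (Entrez 12259) was at 25.4, 29.2, 19.0 and 21.0 CPM in control replicates 1 to 4 and at 21.5, 22.5, 20.4 and 18.1 CPM in cKO replicates 1 to 4. *C1qb* (Entrez 12260) was at 7.19, 9.21, 5.17 and 6.15 CPM in control and at 6.21, 6.02, 5.95 and 4.45 CPM in cKO replicates. *C1qc* (Entrez 12262) was at 23.8, 32.0, 18.1 and 17.0 CPM in control and at 24.1, 20.6, 18.7 and 18.4 CPM in cKO replicates. For all 3 genes control replicate 2 was the highest of the 8 libraries, and most cKO values fell inside the control range. The log2 fold changes were -0.20 for *C1qa* (95% interval -0.47 to 0.07), -0.29 for *C1qb* (95% interval -0.67 to 0.09) and -0.15 for *C1qc* (95% interval -0.57 to 0.27). Their adjusted p-values in edgeR lay between 0.367 and 0.688, and all 3 values moved towards or past 0 without control replicate 2, to -0.08 for *C1qa*, -0.13 for *C1qb* and 0.06 for *C1qc*. With cKO replicate 4 alone against the controls they were -0.37, -0.63 and -0.29. The chains kept near the same proportion to each other in all libraries, with *C1qb* at 0.245 to 0.316 and *C1qc* at 0.808 to 1.12 of the CPM of *C1qa*.

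*Adgre1* (Entrez 13733, chromosome 17 from 57358581 to 57483529), which encodes the surface receptor F4/80, was at 17.8, 20.5, 11.1 and 10.9 CPM in control and at 15.4, 14.2, 13.2 and 12.7 CPM in cKO replicates 1 to 4. Control replicates 1 and 2 were the highest and control replicates 3 and 4 the lowest, with all cKO libraries between them. The log2 fold change of *Adgre1* was -0.12 (95% interval -0.54 to 0.31, adjusted p = 0.772 in edgeR) and became 0.06 without control replicate 2. *Cd68* (Entrez 12514, chromosome 11 from 69664213 to 69666170), the gene of a lysosomal membrane protein, was at 8.14, 8.63, 7.38 and 5.63 CPM in control and at 8.54, 7.66, 5.82 and 5.99 CPM in cKO replicates. The ranges were nearly the same, and the log2 fold change was -0.09 (95% interval -0.44 to 0.27, adjusted p = 0.799 in edgeR). For *Cd68* it was -0.01 without control replicate 2 and -0.30 with cKO replicate 4 alone.

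*Mrc1* and *Cd163* are often read as genes of resident or alternatively activated macrophages. *Mrc1* (Entrez 17533, chromosome 2 from 14229414 to 14332023), which encodes the mannose receptor CD206, was at 41.0, 49.3, 34.9 and 42.3 CPM in control and at 52.3, 50.0, 49.1 and 37.8 CPM in cKO replicates 1 to 4. It was higher in the 3 libraries with fat cell RNA than in most controls, and cKO replicate 4 lay inside the control range. For *Mrc1* the log2 fold change was 0.18 (95% interval -0.08 to 0.43, adjusted p = 0.408 in edgeR), and it was -0.14 with cKO replicate 4 alone. *Cd163* (Entrez 93671, chromosome 6 from 124304636 to 124330529), the scavenger receptor for haemoglobin, was at 4.29, 3.40, 2.46 and 2.31 CPM in control and at 3.69, 4.89, 3.54 and 4.24 CPM in cKO replicates. Only control replicate 1 reached into the range of the cKO libraries. Its log2 fold change of 0.39 (95% interval -0.05 to 0.84, adjusted p = 0.287 in edgeR) was the largest positive value among the 8 genes, and it was 0.45 with cKO replicate 4 alone.

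Levels of different genes were compared per kilobase of exon, using the exons of GENCODE M21. In control uteri *C1qa* was at 22.7 ± 4.38 CPM per kilobase (SD, n = 4), and all its libraries were above those of *C1qc*, at 11.8 ± 3.57 CPM per kilobase. *C1qc* overlapped with *Csf1r* (7.79 ± 1.67 CPM per kilobase). *Mrc1*, *C1qb*, *Cd68* and *Adgre1* followed with means from 6.58 down to 4.65 CPM per kilobase, and each overlapped with its neighbour in this order. *Cd163* was lower, at 0.571 ± 0.169 CPM per kilobase, and did not overlap with *Adgre1*. *Retnla* was the lowest in control uteri at 0.296 ± 0.255 CPM per kilobase, overlapping with *Cd163*. In cKO uteri it was at 2.69 ± 1.55 CPM per kilobase, above the mean of *Cd163*, at 0.749 ± 0.112 CPM per kilobase.

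A wider list of 40 macrophage genes, of which 39 could be tested, gave a similar picture. One of them, *Gas6*, passed the adjusted threshold, against 5.34% of all genes tested, and DESeq2 called 1 as well. *Gas6* encodes a bridging ligand that lets receptors such as MERTK recognise dying cells, and many cells besides macrophages make it. *Gas6* was lower in every cKO library (152.4 to 177.9 CPM) than in every control library (228.9 to 263.3 CPM). The log2 fold change was -0.59 with a standard error of 0.06 (adjusted p = 0.000249 in edgeR), and with cKO replicate 4 alone it was -0.53. Of the 39 genes, 18 had a log2 fold change above 0 and 21 below 0, with a median of -0.12. An unadjusted p-value under 0.05 was found for 10 of them, against 21.2% of all genes. With cKO replicate 4 left out 3 genes were called, namely *Gas6*, *F13a1* and *Stab1*, while 1773 of all 16549 genes tested were called.

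**Figure D2:**
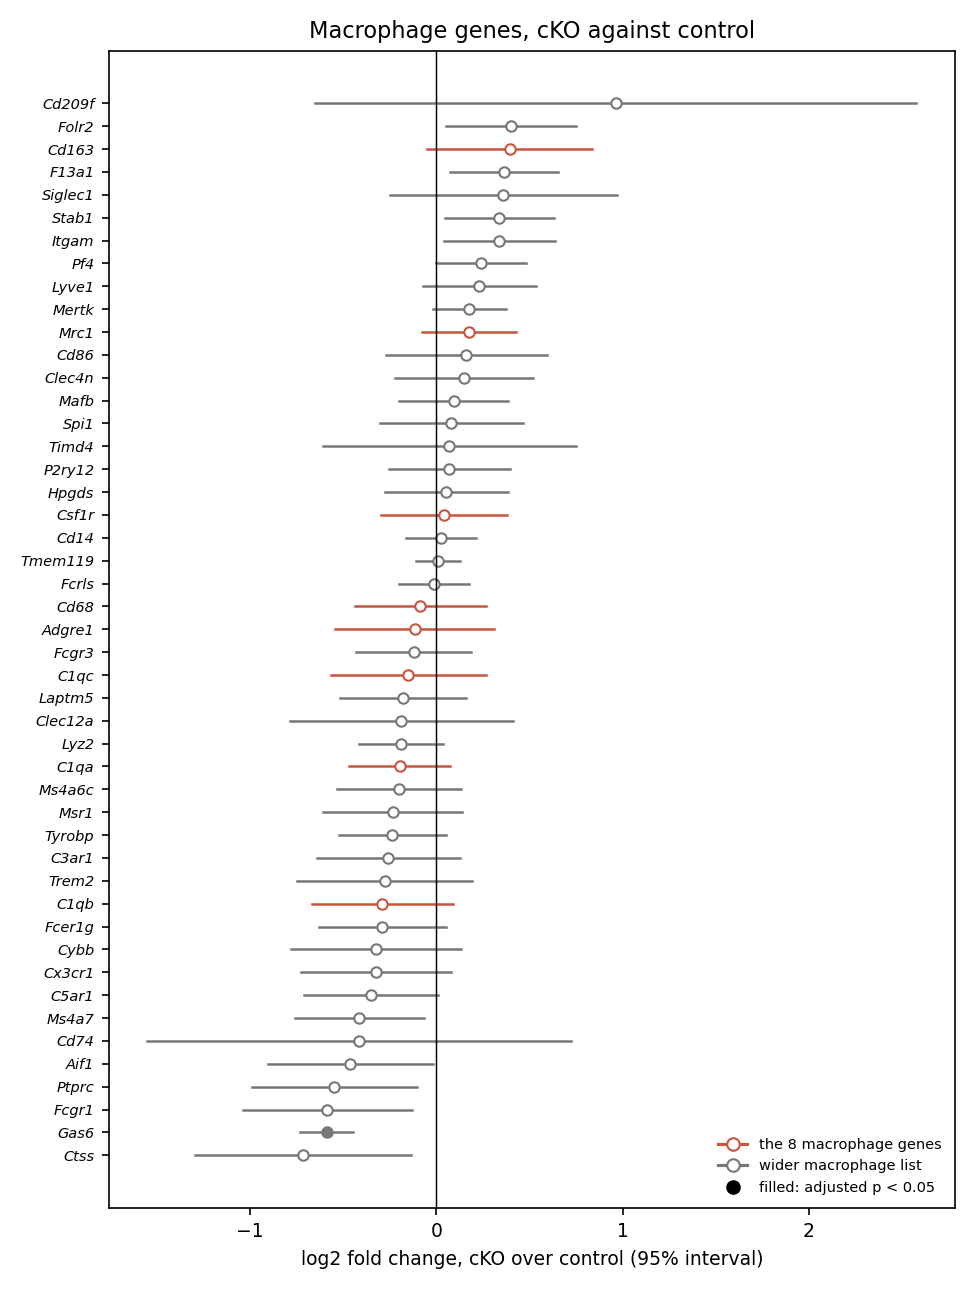
Log2 fold change (cKO over control) and its 95% interval for the 8 macrophage genes (red) and the 39 genes tested from the wider macrophage list (grey), ordered by size, with a filled point where the adjusted p-value is under 0.05. Only *Gas6* is filled, and the intervals of all 8 macrophage genes include 0.

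Control replicate 2 had the highest level among the controls for 7 of the 8 genes, and control replicates 3 and 4 were the lowest for 4 genes each. In cKO uteri replicate 1 was the highest and replicate 4 the lowest for 6 of the 8 genes each. The sum of the 8 genes was 178.0, 207.7, 132.3 and 145.1 CPM in control and 184.3, 174.6, 163.0 and 139.2 CPM in cKO replicates 1 to 4. The highest library was at most 2.12 times the lowest, for *Cd163*. Levels were also taken relative to *Csf1r* in the same library. *C1qa* was at 0.505, 0.526, 0.554 and 0.527 of *Csf1r* in control and at 0.408, 0.462, 0.439 and 0.485 in cKO replicates. *C1qb* was at 0.143, 0.166, 0.151 and 0.154 of *Csf1r* in control and at 0.118, 0.124, 0.128 and 0.119 in cKO replicates. For both genes every cKO library was under every control library. Ratios to *Csf1r* of 2.23% of the 16657 other genes tested separated in this direction. The remaining 5 macrophage genes overlapped on this scale, including *C1qc*, at 0.501 ± 0.0658 in control and 0.444 ± 0.0386 in cKO uteri (SD, n = 4 each). *Mrc1* was at 0.946 ± 0.114 of *Csf1r* in control and 1.02 ± 0.0268 in cKO uteri. These ratios were not tested.

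**Figure D3:**
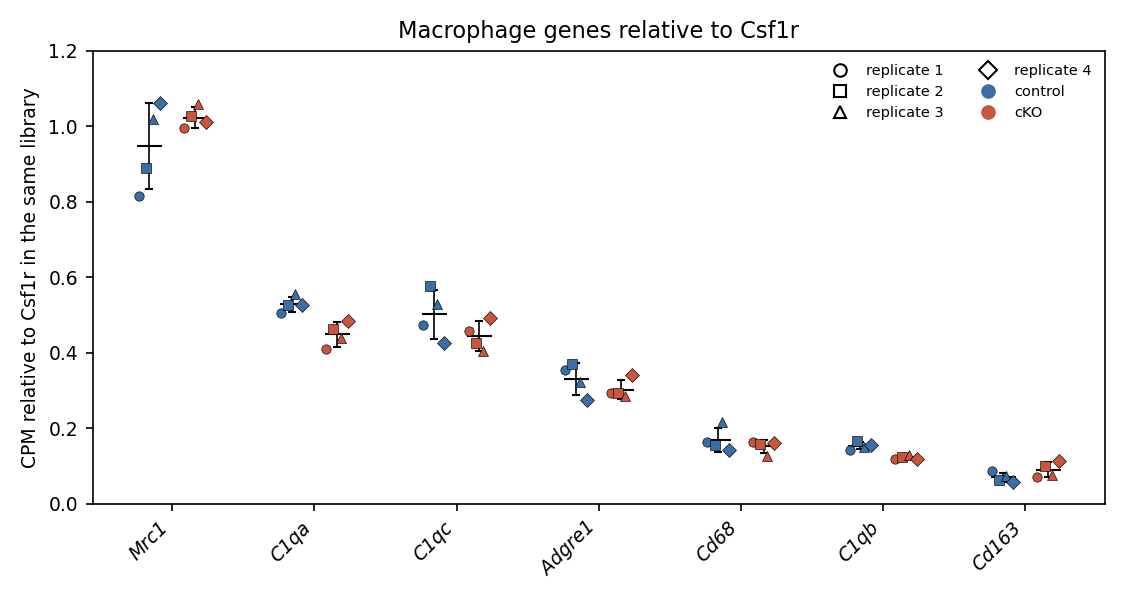
CPM of 7 macrophage genes divided by the CPM of *Csf1r* in the same library, with 1 point per uterus, the mean as a horizontal line and the SD as the error bar (n = 4 per genotype). *C1qa* and *C1qb* are lower in all cKO libraries (at most 0.485 and 0.128) than in all control libraries (at least 0.505 and 0.143), and the other 5 genes overlap.

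*Retnla* (Entrez 57262) lies on chromosome 16 of GRCm38 from 48842609 to 48844461, between *Retnlb* and *Retnlg*. It was at 0.0631, 0.0387, 0.250 and 0.357 CPM in control replicates 1 to 4, from 2, 1, 7 and 13 reads. In cKO replicates 1 to 4 it was at 2.06, 2.68, 1.08 and 0.630 CPM, from 53, 80, 35 and 18 reads. All cKO libraries were above all control libraries, cKO replicates 1 and 2 by the widest margin and cKO replicate 4 by the smallest, and 2 of the control libraries were at or under the limit of 3 reads. The mean rose 9.10-fold, from 0.177 ± 0.153 to 1.61 ± 0.928 CPM (SD, n = 4 each), and the log2 fold change in edgeR was 3.08. In all, 186 reads were counted in cKO and 23 in control uteri. As the gene was picked for this rise, no p-value or interval is given. Leaving out 1 library at a time moved its log2 fold change between 2.72 and 3.73. The highest control and the lowest cKO library, both replicate 4, had 13 and 18 reads.

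The resistin family has 3 other genes in the mouse. *Retnlb* had 0 reads in every library. *Retnlg*, its neighbour and a gene of neutrophils, was at 0.568, 0.580, 0.250 and 0.467 CPM in control and at 0.738, 1.27, 0.277 and 0.385 CPM in cKO replicates, and these overlapped. Its log2 fold change was 0.51 (adjusted p = 0.556 in edgeR, standard error 0.45). *Retn*, on another chromosome, encodes resistin, which fat cells make in mice. It had 2, 5, 3 and 3 reads in control replicates, 213, 445 and 180 reads in cKO replicates 1 to 3 and 2 reads in cKO replicate 4. This corresponds to 8.27, 14.9 and 5.54 CPM in the 3 libraries with fat cell RNA and 0.0701 CPM in cKO replicate 4, and *Retn* was not tested because the filter asked for 4 libraries. How reads shared by the similar sequences of this family were counted is not given in the sources used here.

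Other genes of the IL4 and IL13 pathway were read from a list of 25, of which 17 could be tested. The cytokines themselves were at the detection limit, with 0 or 1 read of *Il4* and 0 to 3 reads of *Il13* per library. *Chil3*, another gene of alternative activation that is also on the list of monocyte genes, had 22 reads in cKO replicate 1 and 0 to 4 reads elsewhere. *Chil4* had none. In edgeR 3 genes of the list passed the adjusted threshold and were higher, and 1 passed and was lower, while DESeq2 called 4 genes. Over all 16658 genes edgeR called 2.62% as higher and 2.71% as lower, and DESeq2 called 1506. *Mgl2*, which encodes a C-type lectin of macrophages and dendritic cells, was at 1.86, 1.78, 1.68 and 2.17 CPM in control and at 4.23, 3.05, 2.80 and 2.91 CPM in cKO replicates 1 to 4. All cKO libraries, including replicate 4, were above all control libraries, and the log2 fold change was 0.78 (adjusted p = 0.0258 in edgeR, standard error 0.18). This call was lost when control replicate 1 (adjusted p = 0.0848) or 3 (0.0724), or cKO replicate 1 (0.0783) or 2 (0.0555), was left out, with log2 fold changes between 0.64 and 0.82. With the adipocyte score as a covariate it was lost too, at a log2 fold change of 0.69 (adjusted p = 0.487). The score was high in 3 of the 4 cKO libraries and in no control, so this fit can hardly separate it from genotype. Over all 16658 genes this fit called 83. With cKO replicate 4 alone the log2 fold change of *Mgl2* was 0.64. *Il1rl1*, the gene of the IL33 receptor ST2 found on mast cells and type 2 lymphocytes, was found at 2.49, 1.70, 3.28 and 2.61 CPM in control and at 4.74, 4.79, 3.64 and 4.03 CPM in cKO replicates. Its groups did not overlap either, with a log2 fold change of 0.76 (adjusted p = 0.0371 in edgeR, standard error 0.19). This call was also lost when control replicate 1, 2 or 4 or cKO replicate 1, 2 or 3 was left out, with adjusted p-values of up to 0.113 and log2 fold changes between 0.62 and 0.83. The adipocyte score as a covariate gave 0.66 (adjusted p = 0.549), and the log2 fold change with cKO replicate 4 alone was 0.68. *Pparg*, a transcription factor of fat cells and of some macrophages, reached 4.27, 5.79 and 2.90 CPM in cKO replicates 1 to 3 but 1.44 CPM in cKO replicate 4, inside the control range of 0.678 to 1.65 CPM. Its log2 fold change of 1.63 (adjusted p = 0.0418 in edgeR, standard error 0.40) was 0.32 with cKO replicate 4 alone. Leaving out control replicate 1, 2 or 3 or cKO replicate 1, 2 or 3 gave an adjusted p-value over the threshold, up to 0.121, with log2 fold changes between 1.30 and 1.72. So did the fits without a filter (log2 fold change 1.62, adjusted p = 0.0685) and with the replicate block (1.54, adjusted p = 0.0812). With the adipocyte score as a covariate the log2 fold change of *Pparg* was 0.37 (adjusted p = 0.944). *Tgm2*, which encodes a transglutaminase of many cell types, was lower, at 376.4 ± 38.2 CPM against 282.6 ± 16.7 CPM (SD, n = 4 each; adjusted p = 0.00707 in edgeR). For *Tgm2* the log2 fold change was -0.41, and with cKO replicate 4 alone it was -0.38. With the adipocyte score as a covariate it was -0.40 (adjusted p = 0.247).

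The rise of *Retnla* went along with fat cell RNA in 3 of the 4 cKO libraries. *Adipoq*, the gene of adiponectin, reached 11.7, 23.7 and 14.4 CPM in cKO replicates 1 to 3, against 0.0350 CPM in cKO replicate 4 and 0.0631 to 0.387 CPM in the controls. *Plin1*, which coats lipid droplets, reached 9.67, 16.5 and 6.22 CPM in the same 3 libraries, against 0.0701 CPM in cKO replicate 4, and no control exceeded 0.348 CPM. Of 10 adipocyte genes tested, *Adrb3* alone was called in edgeR with all libraries and no replicate block (log2 fold change 1.34, adjusted p = 0.00204). An unadjusted p-value under 0.05 was found for 9 of them, and DESeq2 called 9. Over all genes edgeR called 5.34%, 21.2% had an unadjusted p-value under 0.05, and DESeq2 called 1506 of 16658. With the replicate block *Adipoq* (adjusted p = 0.0462 in edgeR) and *Plin1* (6.83e-08) passed as well, in a fit that called 1240 of 16658 genes. Without cKO replicate 4 *Adipoq* (adjusted p = 4.52e-05 in edgeR), *Fabp4* (0.00172) and *Plin1* (0.000582) passed, in a fit that called 1773 of 16549 genes. With cKO replicate 4 alone the log2 fold change of *Adrb3* was 1.00. The sum of the 12 adipocyte list genes was 94.0 to 122.2 CPM in control libraries and 240.6, 400.2, 231.0 and 138.6 CPM in cKO replicates 1 to 4. *Thrsp*, a gene of lipid synthesis that other cells express too, made up most of this sum outside cKO replicates 1 to 3, with 80.1 to 105.5 CPM in control libraries and 122.9 CPM in cKO replicate 4, and its log2 fold change was -0.04. cKO replicate 2 was the highest for *Retnla*, *Retn*, *Adipoq* and *Plin1*, and cKO replicate 4 the lowest among the cKO libraries. In cKO replicate 4, where *Adipoq*, *Plin1* and *Retn* were at or under 3 reads, *Retnla* had 18 reads. Of the 12 adipocyte list genes, 3 were above all controls in this library, 7 lay inside the control range and 2 were below it. Those above were *Thrsp*, *Fabp4*, which encodes a fatty acid carrier of fat cells, at 1.61 CPM against 0.659 to 1.43 CPM in the controls, and *Adrb3*, a receptor for noradrenaline, at 2.10 CPM against 0.915 to 1.18 CPM. In cKO replicates 1 to 3 *Fabp4* reached 39.0, 106.7 and 45.3 CPM. With the adipocyte score as a covariate the log2 fold change of *Retnla* was 1.72. As the score was high in 3 of the 4 cKO libraries and in no control, this fit can hardly separate it from genotype. The part of fat cells in the rise of *Retnla* was not tested beyond these values.

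The 5 genes whose levels over the 8 libraries were most like those of *Retnla* were *Lgals12*, *Gpd1*, *A530016L24Rik*, *Dhrs9* and *Slc26a4*. Likeness was measured as the root-mean-square difference between log2(CPM + 0.1) profiles, each centred on its mean, among 14627 genes with a mean of at least 1 CPM in a genotype. This difference was 0.516 for *Lgals12* and 0.661 for *Slc26a4*. *Lgals12*, which encodes a galectin of fat cells, was at 0.789, 0.426, 0.928 and 0.906 CPM in control and at 3.88, 4.69, 3.02 and 1.61 CPM in cKO replicates 1 to 4. *Gpd1*, the gene of a glycerol-3-phosphate dehydrogenase used in lipid synthesis, was between 4.06 and 8.49 CPM in control libraries and at 22.6, 31.6, 18.1 and 8.62 CPM in cKO replicates. For both genes control replicate 2 was the lowest control and cKO replicate 4 the lowest cKO library, as for *Retnla*. The unnamed transcript *A530016L24Rik* was at 0.210 CPM in cKO replicate 4, inside the control range of 0.116 to 0.357 CPM. *Dhrs9*, the gene of a retinol dehydrogenase, and *Slc26a4*, the gene of the anion transporter pendrin, stayed high in cKO replicate 4, at 3.78 and 4.38 CPM. As these genes were chosen by their likeness to *Retnla*, their differences between genotypes are a description.

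**Figure D4:**
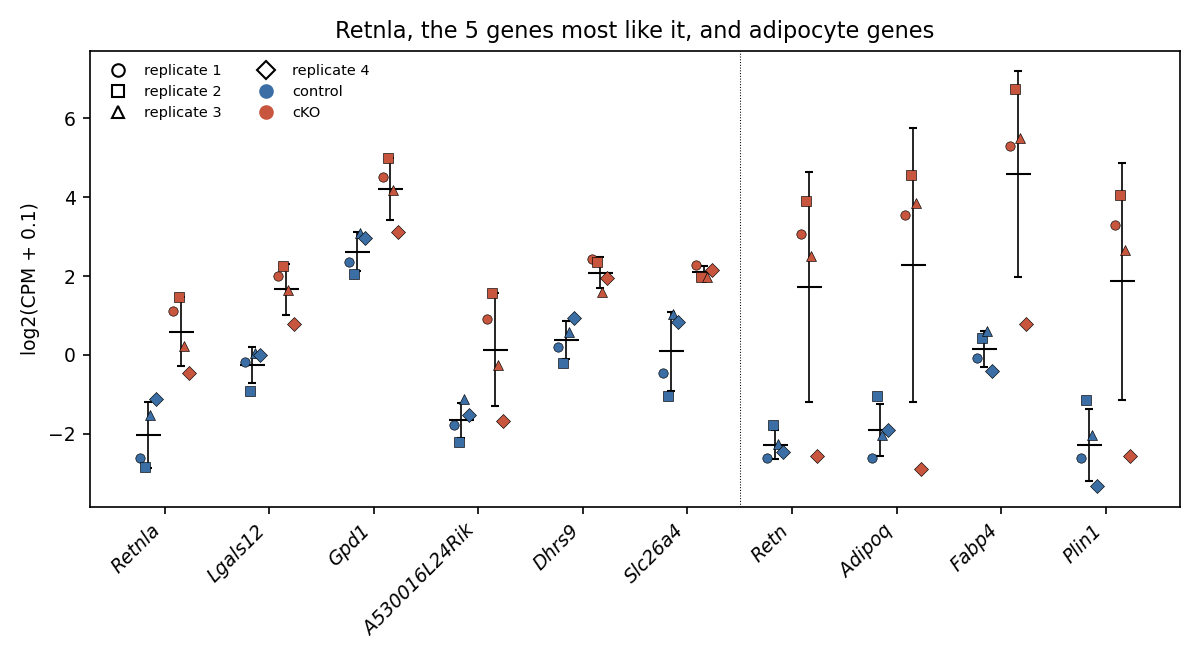
Log2(CPM + 0.1) of *Retnla* and the 5 genes most like it (left of the dotted line) and of *Retn* and 3 adipocyte genes (right), with 1 point per uterus, the mean as a horizontal line and the SD as the error bar (n = 4 per genotype). cKO replicate 4 (red diamond) lies at or under the control level for *Retn*, *Adipoq* and *Plin1*, while its *Fabp4* value of 1.61 CPM and its *Retnla* value of 0.630 CPM are above the highest controls of 1.43 and 0.357 CPM.

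Markers of other myeloid cells were at low levels for the most part. Of 4 monocyte genes tested, all had a log2 fold change below 0, and *Plac8* alone passed the test, against 2.71% of all genes called as lower. It was lower in cKO uteri (log2 fold change -1.20, standard error 0.11, adjusted p = 0.000129 in edgeR). It was at 106.0 ± 14.9 CPM in control uteri, far above the other monocyte genes. *Ly6c2*, a surface protein of inflammatory monocytes, had a log2 fold change of -1.76 (adjusted p = 0.107 in edgeR, unadjusted p = 0.011), with 13 to 45 reads per control and 3 to 15 reads per cKO library. *Ccr2*, the receptor that brings monocytes into tissue, averaged 7.58 ± 1.82 CPM in the control group and 6.04 ± 1.17 CPM in the cKO group (SD, n = 4 each). With cKO replicate 4 alone the log2 fold change of *Plac8* was -1.19. None of the 8 neutrophil, 2 eosinophil, 8 dendritic cell or 6 mast cell genes tested passed the adjusted threshold in edgeR, although 4, 1, 2 and 4 of them had an unadjusted one, and DESeq2 called 1, 0, 0 and 2. Over all genes 21.2% had an unadjusted p-value under 0.05, and DESeq2 called 1506 of 16658. All 8 neutrophil genes tested had a log2 fold change above 0, with a median of 0.88. The sum of the neutrophil genes was 4.86 to 10.8 CPM in control libraries and 18.6, 9.07, 8.72 and 8.34 CPM in cKO replicates 1 to 4. Only cKO replicate 1 was thus above the control range. The sum of the eosinophil genes was 0.735 to 1.01 CPM in control and 1.05 to 2.06 CPM in cKO libraries. The eosinophil peroxidase gene *Epx* had 0 to 8 reads per library. Of 10 partners of C1q in the complement pathway tested, none was called in edgeR, 2 had an unadjusted p-value under 0.05, and DESeq2 called 1. Among them *C3*, the central complement protein, was between 32.2 and 45.3 CPM in control and between 46.7 and 73.0 CPM in cKO libraries, and did not pass the test (log2 fold change 0.62, adjusted p = 0.0826 in edgeR).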

How the data were processed

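RNA-seq of whole uteri from 4 control and 4 *Ezh2 Amhr2*-Cre cKO mice was used, with 9 members among 27179 genes. A further member and the list that goes with it are not reported here. According to the labels and methods, reads of stranded mRNA libraries were trimmed with Trimmomatic, aligned to GRCm38 with HISAT2 and counted with featureCounts. The authors deposited raw counts per Entrez gene without normalization. Strand setting and multi-mapping are not given in the sources used here, so overlapping or similar genes are uncertain. The authors' deposited edgeR comparison was read for gene symbols only. It also holds log2 fold changes and p-values, which were not used, and neither was the deposited log2 CPM table.

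Counts were analysed with R 4.3.3, edgeR 4.0.16 and, as an alternative, DESeq2 1.42.0. A CPM over 0.2 in 4 or more libraries was required of a gene (16658 passed), and counts were scaled with TMM and compared with glmQLFit and glmQLFTest (robust = TRUE, prior count 0.125), with Benjamini-Hochberg adjustment over all genes tested. A standard error is the size of the log2 fold change divided by the square root of F. Symbols came from the deposited table and RefSeq GRCm38.p6, 25440 genes in all. On simulated counts for 16658 genes, 196 of 200 genes changed by 1.5 on the log2 scale were recovered with 13 false calls, and 3 genes were called when none had been changed. All 28 pairs of libraries differed by more than sampling noise (chi-square of at least 7.44 per gene).

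The members and lists were chosen with earlier results of these data known. Named genes are the members, *Csf1* and *Il34*, the resistin family, list genes with an adjusted p-value under 0.05, *Adipoq*, *Fabp4* and *Plin1*, the 5 genes most like *Retnla*, and *Ezh2*. *Ccr2*, *C3*, *Chil3*, *Epx*, *Hdc*, *Ly6c2*, *Thrsp* and others at low levels or in the closing section were named after their values were seen. The comparison of cKO replicate 4 alone with the controls, and the ratios to *Csf1r*, were added after seeing the data. Alternatives were other scaling, filters and tests, a replicate block, an adipocyte score as covariate and leaving out each library.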

Additional observations from a re-analysis of the deposited data

Results flagged for a closer look

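Among 18 groups of 4 libraries (9 genes in 2 genotypes), 1 held a library far from the others, where chance flags about 1 in 20. This was *C1qb* in cKO replicate 4, at 4.45 CPM from 127 reads, while the other cKO libraries lay between 5.95 and 6.21 CPM. *C1qa*, *C1qc* and *Csf1r* were also lowest in cKO replicate 4 among the cKO libraries, at 18.1, 18.4 and 37.4 CPM. The same library had the least fat cell RNA of the cKO libraries, with *Adipoq* at 0.0350 CPM, and its *C1qb* level is 0.119 of *Csf1r*, inside the range of 0.118 to 0.128 of the cKO libraries.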

How the results depend on the processing

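None of the 8 macrophage genes was called under any of 15 alternatives (0 to 0 without single libraries). Log2 fold changes that turned sign were, with the adipocyte score, *Csf1r* (-0.239), *Mrc1* (-0.123), *Csf1* (-0.323), *Retnlg* (-0.41) and *A530016L24Rik* (-0.254). With cKO replicate 4 alone, assumed to vary like the controls, they were *Csf1r* (-0.254), *Mrc1* (-0.138), *Csf1* (-0.332) and *Retnlg* (-0.266). Without single libraries they were *Csf1r* (-0.0674 to -0.0132, -0.0235 without cKO replicate 1, up to 0.157), *Adgre1* (-0.246 to 0.0642), *C1qc* (-0.27 to 0.0585), *Retnlg* (-0.0266 without cKO replicate 2, up to 0.773) and *Csf1* (-0.0352, -0.00778, -0.00769, -0.0517 and -0.0296, up to 0.0984). *Csf1* was also -0.000708 without a filter and -0.00593 with the replicate block. The wider macrophage list had 1 call in edgeR, 1 to 3 without single libraries, 3 with the replicate block and 0 with cKO replicate 4 alone.

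Of all genes, 889 were called in edgeR, 83 with the adipocyte score, 1506 with DESeq2, 35 with cKO replicate 4 alone and 393 (without control replicate 1) to 1773 (without cKO replicate 4) without single libraries. With a fold over 2 there were 217, 139 with a CPM over 1, 39 with the adipocyte score, 20 with cKO replicate 4 alone and 134 to 320 without single libraries. The causes were not tested. Replicate numbers did not pair the samples: same-numbered deviations correlated by -0.00354 to 0.194, and 1 of 4 controls correlated best with its own number. With the replicate block 1240 genes were called, and the log2 fold change of *Retnla* was 2.94. *Retnla* was under the filter with a CPM over 1 and with cKO replicate 4 alone. The adipocyte score was not used on the genes it contains. Depth limits *Retnla* in control uteri, with 23 reads in all.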

Other observations

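Within the wider macrophage list, the genes with an unadjusted p-value under 0.05 in edgeR were 4 higher and 6 lower in cKO uteri, 10 of 39 against 21.2% of all genes. The higher ones were *Itgam*, *Folr2*, *F13a1* and *Stab1*. *Lyve1*, *Timd4* and *Cd209f*, other genes of the list, had log2 fold changes of 0.23, 0.07 and 0.96 and unadjusted p-values from 0.119 to 0.825 in edgeR. The value of *Cd209f* rests on 1 to 25 reads per library. *Folr2* was at 2.46 to 3.02 CPM in control and at 4.39, 3.38, 3.54 and 2.98 CPM in cKO replicates 1 to 4. *Stab1*, which endothelial cells also express, was at 62.3 to 84.2 CPM in control and at 102.1, 97.0, 90.0 and 66.9 CPM in cKO replicates. For both genes cKO replicate 4, the cKO library with the least fat cell RNA, lay inside the control range. The lower ones were *Aif1*, *Fcgr1*, *Ctss*, *Ms4a7*, *Ptprc* and *Gas6*. *Fcgr1*, the gene of a high-affinity IgG receptor, was at 4.32, 5.57, 3.10 and 2.99 CPM in control and at 2.83, 2.64, 2.96 and 2.17 CPM in cKO replicates, so that all cKO libraries, replicate 4 included, were under all control libraries. *Ctss*, the gene of cathepsin S, was at 22.1 and 26.3 CPM in control replicates 1 and 2, at 11.9 and 11.8 CPM in control replicates 3 and 4 and at 10.0 to 11.9 CPM in cKO libraries. Apart from *Gas6*, none of these genes passed the adjusted threshold with all 8 libraries and no replicate block, and they are named here after their values were seen. With the replicate block *F13a1* (adjusted p = 0.049 in edgeR) and *Ptprc* (0.0254) passed as well, and without cKO replicate 4 *F13a1* (0.0446) and *Stab1* (0.0121) did. These fits called 1240 of 16658 and 1773 of 16549 genes, respectively.

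The mast cell protease genes *Cma1*, *Mcpt4*, *Cpa3* and *Tpsb2* were each higher in cKO replicate 4 than in cKO replicates 2 and 3, whereas the fat cell RNA was lowest in cKO replicate 4. In cKO replicate 1, which held fat cell RNA, *Mcpt4* (8.08 CPM) and *Tpsb2* (11.4 CPM) were above cKO replicate 4 (5.53 and 10.6 CPM). *Cpa3* (10.4 against 10.9 CPM) and *Cma1* were below it. The protease genes are 4 of 6 genes tested from the mast cell list, and were named after their values were seen. None of the 6 passed the adjusted threshold in edgeR, while DESeq2 called 2. *Cma1* was at 2.02, 2.55, 5.92 and 4.83 CPM in control and at 9.98, 6.46, 6.22 and 10.5 CPM in cKO replicates 1 to 4, and the highest of these was cKO replicate 4. It did not pass the test in edgeR (log2 fold change 1.11, adjusted p = 0.0863). In control uteri these 4 genes were lower in replicates 1 and 2 than in replicates 3 and 4. *Hdc*, the gene of the enzyme that makes histamine, had a log2 fold change of the other sign (-1.32, adjusted p = 0.112 in edgeR), at 63.0, 98.5, 45.6 and 35.6 CPM in control and at 24.6, 21.4, 15.2 and 35.7 CPM in cKO replicates. That of *Kit* was -0.04, and *Ms4a2*, with 0 to 4 reads per library, was not tested.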
